A study of Rattus norvegicus with 19 samples.

Results

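The endoplasmic reticulum (ER) genes described here cover the steps that a secreted protein passes on its way out of a neurone, namely entry through the translocon, removal of the signal peptide, folding, disulphide bonding, disposal of misfolded chains and the stress response that adjusts all of these. They were chosen by name, as probe sets whose platform annotation gives a single gene symbol out of 38 fixed names, and each gene was read from its probe set with the highest mean over the 19 arrays. Of the 38 names, 37 were measured, by 53 probe sets, out of 14217 genes with such a probe set on the array. Ern1, the stress sensor that splices Xbp1 mRNA, had no single-symbol probe set and has no value here.

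Affymetrix rat genome arrays were hybridised with RNA from hypothalamic nuclei that hold magnocellular neurones, the supraoptic (SON) and the paraventricular (PVN). The groups were SON of the spontaneously hypertensive rat (SHR, 4 arrays), SON of the normotensive Wistar Kyoto rat (WKY, 5 arrays), PVN of SHR (5 arrays) and PVN of WKY (5 arrays). All animals were untreated males of inbred strains aged 12 weeks per the labels, each array carried RNA pooled from several dissected nuclei, and no transgene or treatment was involved. An array is therefore a pool and not an animal, so the p-values below measure the spread between pools, and since SHR and WKY are separate inbred strains, a strain difference cannot be told apart from a difference that has nothing to do with blood pressure.

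Magnocellular neurones of both nuclei make vasopressin and oxytocin in large amounts as precursors that fold and form disulphide bonds in the ER. Unfolded protein in the ER lumen activates the sensors ATF6, PERK (encoded by Eif2ak3) and IRE1 (encoded by Ern1), which raise transcription of chaperones and of degradation components through ATF6 itself, through spliced XBP1 and through ATF4. Promoters of classical target genes carry the ER stress response element (ERSE), where the general factor NF-Y binds the CCAAT end and ATF6 or XBP1 the CCACG end, or its shorter relative ERSE-II.

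The promoter sequences below mark exact matches to these elements, which were found in some of the ER genes and not in all of the chaperone genes. Near matches were not searched for, so a window without a match may still hold an element. RefSeq windows (GRCr8, from 250 bases before to 50 bases after the annotated start) were found for 31 of the 37 measured genes, and none was given for Atf6, Ero1a, Manf, Pdia3, Pdia6 and Sec61a1. The upstream 250 bases are shown for Hspa5, which encodes BiP, the main chaperone of the lumen, and for Dnajc3, the gene with the largest WKY difference between the nuclei, with the ERSE in capitals.
Hspa5 (chr3:38452766-38453015, plus strand): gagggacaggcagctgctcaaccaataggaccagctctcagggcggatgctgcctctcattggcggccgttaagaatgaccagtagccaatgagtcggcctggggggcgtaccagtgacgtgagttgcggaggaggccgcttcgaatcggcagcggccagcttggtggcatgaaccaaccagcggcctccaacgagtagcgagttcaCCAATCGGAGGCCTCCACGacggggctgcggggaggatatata
Dnajc3 (chr15:102432417-102432666, plus strand): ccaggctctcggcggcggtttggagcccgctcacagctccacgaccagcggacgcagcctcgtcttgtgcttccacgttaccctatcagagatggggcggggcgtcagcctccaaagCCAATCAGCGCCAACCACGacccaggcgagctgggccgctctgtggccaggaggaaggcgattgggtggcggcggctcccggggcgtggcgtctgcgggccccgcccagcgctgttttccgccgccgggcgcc

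ERSE was searched on both strands as CCAAT and CCACG with any 9 bases between them, a run of 19 bases. It matched in 7 of the 31 windows, those of Hspa5, Dnajc3, Calr, Canx, Ero1b, Hsp90b1 and Xbp1. Among the 21851 windows of protein-coding genes, called all windows below, it matched in 19 (0.087%). Hsp90b1 had 2 matches. The remaining matches are shown with 12 bases on each side and the element in capitals, written along the strand of the gene. A run that begins with CGTGG is the element read from the opposite strand.
Canx (chr10:35158057-35158099, minus strand): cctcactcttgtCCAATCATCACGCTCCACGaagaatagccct
Hsp90b1 (chr7:23012439-23012481, minus strand): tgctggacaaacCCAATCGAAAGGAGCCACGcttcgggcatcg
Hsp90b1 (chr7:23012335-23012377, minus strand): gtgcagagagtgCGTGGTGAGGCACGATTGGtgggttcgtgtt
Xbp1 (chr14:84604546-84604588, plus strand): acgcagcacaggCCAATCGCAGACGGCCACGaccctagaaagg
Calr (chr19:40213123-40213165, plus strand): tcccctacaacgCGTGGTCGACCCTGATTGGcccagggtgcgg
Ero1b (chr17:92941446-92941488, plus strand): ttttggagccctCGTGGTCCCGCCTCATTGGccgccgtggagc

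ERSE-II, searched as ATTGG and CCACG with any single base between them, matched in 3 of the 31 windows (Dnajb11, Herpud1 and Hyou1, the last with 2 matches) and in 13 of all windows (0.0595%). It is shown for Herpud1, which was lower in SON, and for Dnajb11, which was higher in SON of WKY.
Herpud1 (chr19:10614809-10614843, minus strand): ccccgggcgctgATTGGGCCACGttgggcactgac
Dnajb11 (chr11:91672788-91672822, minus strand): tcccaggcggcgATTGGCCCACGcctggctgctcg

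The 7-letter core of the unfolded protein response element (UPRE), TGACGTG, searched in the same way, matched in Hspa5, Hyou1 and Ssr4 and in 1.81% of all windows. In Hyou1 it overlapped an ERSE-II match. TGATGNAA, the C/EBP-ATF response element (CARE) that ATF4 binds, matched in Herpud1 and Trib3 and in 3.35% of all windows. These matches describe the letters of the windows and say nothing of whether a factor was bound in these nuclei.

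**Figure D1:**
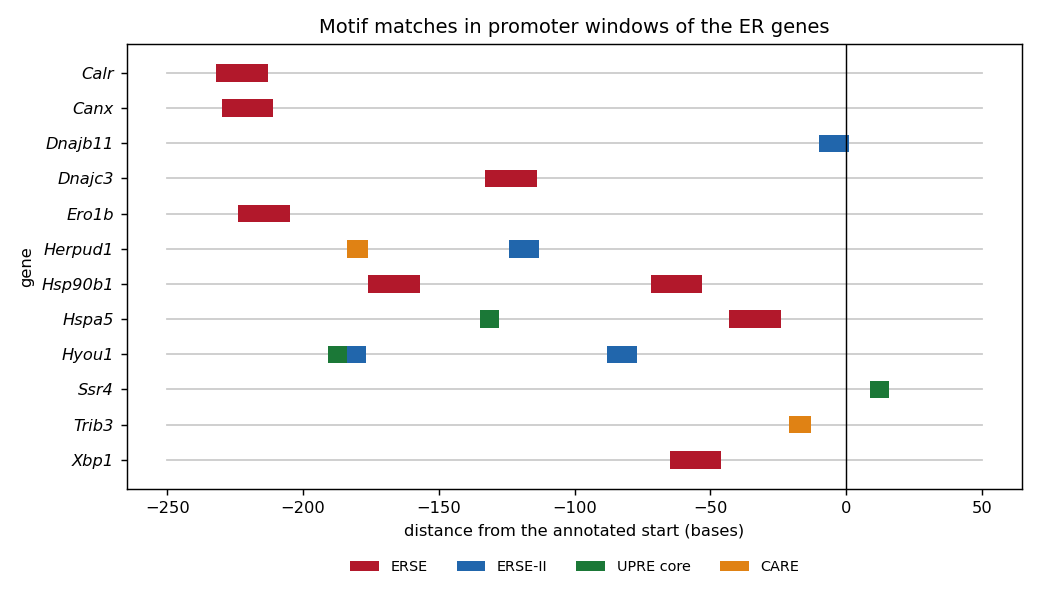
Positions of the motif matches in the 12 promoter windows that had any (x axis, bases from the annotated start, each window running from 250 before to 50 after it; y axis, genes). Bars mark ERSE, ERSE-II, UPRE core and CARE matches on either strand, and ERSE appears in 7 windows, with 2 matches in that of Hsp90b1.

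Signals were compared after the arrays had been scaled to a common median, as log2 values with a floor of 1.91, and a probe set was tested where at least 1 group in the fit had a mean of 5.32 or more. WKY SON array 3, WKY SON array 5 and SHR PVN array 4 resembled the other arrays of their groups least (mean correlation 0.929, 0.945 and 0.947, against 0.968 for the highest array). Counts are given with all arrays and without array 3 of WKY SON and array 4 of SHR PVN, the lowest of each nucleus, or without WKY SON array 5. The nuclei carried the markers of their labels. Avp, the vasopressin gene, averaged 12.26 ± 0.15 in SHR SON, 12.38 ± 0.40 in WKY SON, 12.03 ± 0.19 in SHR PVN and 12.32 ± 0.14 in WKY PVN (log2, SD), and its mean ranked 4 among all probe sets. The parvocellular genes Crh, Trh and Sst were lower in SON of both strains. Of 5 tested ependymal and choroid markers, 4 were lower in SON of both strains without overlap (Foxj1, Tekt1, Ak7 and Folr1), and the list averaged 5.27 in SHR SON, 5.09 in WKY SON, 7.20 in SHR PVN and 6.95 in WKY PVN. Genes of meningeal fibroblasts ran the other way. All 9 (Dcn, Lum, Col1a1, Col1a2, Col3a1, Ogn, Crabp2, Igf2 and Slc6a13) were higher in SON of both strains, with mean log2 signals per array of 7.97 to 9.27 in SHR SON, 7.53 to 8.17 in WKY SON, 4.90 to 5.30 in SHR PVN and 4.91 to 5.06 in WKY PVN.

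The ER genes were mostly higher in SON than in PVN, in both strains, and by modest amounts. Of 36 tested in SHR, 17 were higher in SON and 2 lower at an adjusted p under 0.05 (limma). Of all probe sets tested, 29.4% passed in SHR, 13.7% higher and 15.7% lower. In WKY, 22 genes were higher and 1 lower, where 26.9% of all probe sets passed, 13.2% higher and 13.7% lower. The median difference of the 36 genes was 0.32 on the log2 scale in SHR and 0.37 in WKY, beside -0.02 and -0.01 for all tested probe sets, and 32 of the 36 had a positive difference in each strain, where 48% and 48.8% of all probe sets did. Groups did not overlap, with SON above, for 11 genes in SHR and 17 in WKY (10.4% and 10.9% of all probe sets), and with SON below for 0 genes in SHR and 1 in WKY (12.6% and 11.1%). A 2-fold difference was reached by 0 genes in SHR and by 1 in WKY, Dnajc3, where 5.65% and 4.91% of all probe sets passed with such a difference. Without SHR PVN array 4 and WKY SON array 3, 15 genes passed in SHR and 24 in WKY, with medians of 0.27 and 0.37, and without WKY SON array 5 the counts were 19 and 22. Leaving out a single array lost the call of 7 of the 19 genes in SHR (Hsp90b1, Sec61g, Ssr1, Ssr3, Spcs3, Herpud1 and Sel1l, adjusted p up to 0.170) and of 4 of the 23 in WKY (Ssr2, Spcs3, Edem1 and Xbp1, up to 0.110).

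In total, 16 genes were higher in SON of both strains, which is 16 of the 17 in SHR and 16 of the 22 in WKY. The SHR and WKY comparisons share no array, although a single fit gave the spread for both. In tissue RNA of this kind, more RNA per neurone and more neurones per dissected piece cannot be told apart. The meningeal markers moved with this comparison, as did 3 of 6 tested astrocyte markers in both strains (Gfap, Aqp4 and Aldh1l1), and 3 of 7 endothelial markers in SHR and 5 of 7 in WKY. Of the 6 astrocyte markers, 1 was negative in SHR and 2 in WKY (lowest -0.26 and -0.25), and none of these passed. Of 7 oligodendrocyte markers, 4 were higher in SON of SHR, and 0 higher and 1 lower in SON of WKY. Of 5 tested microglia markers, 0 passed in SHR and 1 was lower in SON of WKY. Of 8 general neuronal markers, 1 was higher and 1 lower in SON of each strain. Of the 5 tested ependymal and choroid markers, 4 moved against the comparison, and 1 was positive without passing (0.68 in SHR and 0.60 in WKY). The part of these lists in the ER result was not tested. The mean of the meningeal list was 8.61 in SHR SON and 7.95 in WKY SON, with the arrays of the strains overlapping. That of the 36 ER genes was 8.79 in SHR SON and 8.93 in WKY SON. Whether these strain values bear on the difference between the nuclei was not tested.

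**Figure D2:**
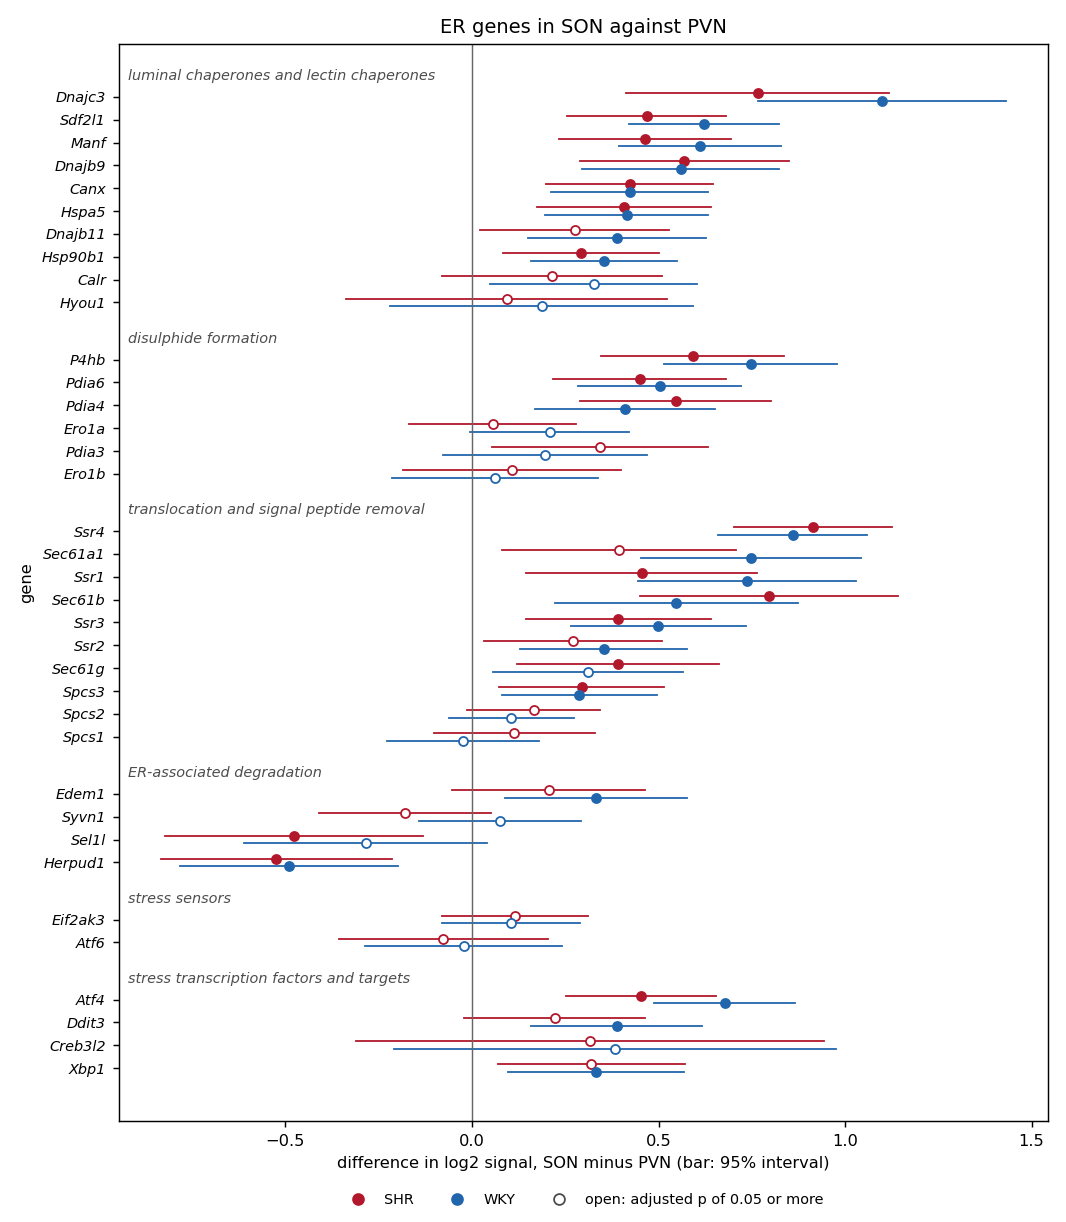
Differences in log2 signal between SON and PVN (x axis, SON minus PVN, bars 95% intervals) for the 36 tested ER genes (y axis, grouped by role), in SHR and in WKY. Filled points have an adjusted p under 0.05, which 17 genes in SHR and 22 in WKY reached above 0, while Herpud1 lies below 0 in both.

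Luminal chaperones led the difference by number. Of 10 chaperones and co-chaperones, 7 were higher in SON of SHR and 8 in SON of WKY. Hspa5 had log2 signals of 10.92, 10.69, 10.95 and 10.98 in SHR SON and 10.77, 10.53, 10.49, 10.30 and 10.30 in SHR PVN. In WKY it had 10.96, 11.04, 11.02, 11.37 and 11.02 in SON and 10.66, 10.69, 10.81, 10.55 and 10.63 in PVN. The WKY nuclei did not overlap, whereas in SHR the highest PVN array passed the lowest SON array. The difference was 0.41 ± 0.11 (SE, adjusted p = 0.0090) in SHR and 0.41 ± 0.11 (adjusted p = 0.0058) in WKY, about 1.33-fold in each.

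Dnajc3 encodes a J-domain co-chaperone of BiP. Its log2 signals were 6.99, 7.15, 6.98 and 6.92 in SHR SON and 6.80, 6.25, 6.16, 6.10 and 5.92 in SHR PVN. WKY SON had 6.97, 7.18, 6.95, 7.54 and 6.97, and WKY PVN 5.65, 5.76, 6.16, 6.23 and 6.31. Every SON array was above every PVN array of its strain. SON was 1.70-fold higher in SHR (log2 difference 0.77 ± 0.17, adjusted p = 0.0018) and 2.14-fold higher in WKY (1.10 ± 0.16, adjusted p = 2.68e-05).

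The co-chaperone Dnajb9 rose by 0.57 in SHR and 0.56 in WKY on the log2 scale. Sdf2l1, which works with J-domain proteins in the lumen, was higher by 0.47 in SHR and 0.62 in WKY, and Manf, an ER-resident protein that is also secreted under stress, by 0.46 and 0.61. None of the 3 overlapped between the nuclei, apart from Dnajb9 in WKY. Canx, the membrane-bound lectin chaperone calnexin, was higher by 0.42 in each strain, and Hsp90b1, a luminal chaperone of the heat shock family, by 0.29 in SHR and 0.35 in WKY. Dnajb11 passed in WKY (0.39, adjusted p = 0.0159) and had a difference of 0.27 in SHR (adjusted p = 0.0967). Calr, the soluble lectin chaperone calreticulin, and Hyou1, which exchanges nucleotide on BiP, did not pass in either strain. Their intervals ran from -0.08 to 0.51 and from -0.34 to 0.52 in SHR, so an increase as large as that of Hspa5 lies inside both.

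Of 6 genes of disulphide formation, 3 were higher in SON of SHR and 3 in SON of WKY, all isomerases. P4hb, the classical protein disulphide isomerase, had 10.37, 9.999, 10.26 and 10.20 in SHR SON and 10.01, 9.62, 9.52, 9.33 and 9.60 in SHR PVN (log2). WKY SON had 10.45, 10.47, 10.38, 10.66 and 10.36, and WKY PVN 9.70, 9.65, 9.89, 9.68 and 9.67. The WKY nuclei were well apart, and in SHR the highest PVN array reached just above the lowest SON array. The difference was 0.59 ± 0.12 in SHR (adjusted p = 0.00075) and 0.75 ± 0.11 in WKY (adjusted p = 3.75e-05). Pdia4 was higher in SON by 0.55 in SHR and 0.41 in WKY, and Pdia6 by 0.45 and 0.50. Pdia3, the isomerase that works with the lectin chaperones, did not pass with its brightest probe set (0.34, adjusted p = 0.0691 in SHR and 0.20, adjusted p = 0.284 in WKY), while its dimmer probe set did (0.29, adjusted p = 0.0398 and 0.47, adjusted p = 0.0011). The oxidases Ero1a and Ero1b, which recharge the isomerases, had differences of 0.05 and 0.11 in SHR and 0.21 and 0.06 in WKY. None of these 4 passed, and the upper bounds of their 95% intervals lay between 0.28 and 0.42.

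The translocation genes held the largest SHR difference. Ssr4 encodes the delta subunit of the translocon-associated protein (TRAP) complex, which sits beside the SEC61 channel. Its log2 signals were 10.49, 10.63, 10.65 and 10.53 in SHR SON and 9.84, 9.69, 9.55, 9.60 and 9.62 in SHR PVN. In WKY they were 10.74, 10.63, 10.65, 11.07 and 10.93 in SON and 9.90, 9.85, 10.09, 9.89 and 9.99 in PVN. The nuclei were separated in both strains, by 0.91 ± 0.10 in SHR (1.88-fold, adjusted p = 8.2e-07) and 0.86 ± 0.10 in WKY (1.81-fold, adjusted p = 9.48e-07).

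The other TRAP subunits moved the same way. Ssr1 rose by 0.46 in SHR and 0.74 in WKY, and Ssr3 by 0.39 and 0.50. Ssr2 passed in WKY (0.35) and had 0.27 in SHR (adjusted p = 0.0817). A further, dimmer probe set of Ssr1 gave larger differences of 1.01 in SHR and 0.89 in WKY, both called. Of the channel itself, Sec61b was higher by 0.80 in SHR and 0.55 in WKY. Sec61a1, the pore-forming subunit, passed in WKY (0.75, adjusted p = 0.0005) and had 0.39 in SHR (adjusted p = 0.0539). Sec61g, the smallest subunit, passed in SHR (0.39, adjusted p = 0.0280) and had 0.31 in WKY (adjusted p = 0.0659).

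Of the signal peptidase subunits, Spcs3 rose in both strains (0.29 in each). That call was lost without any of 7 single arrays in SHR, with values as low as 0.22 (adjusted p = 0.153), and of 6 in WKY, also down to 0.22 (adjusted p = 0.109). Spcs1 had 0.11 in SHR and -0.02 in WKY, and Spcs2 0.17 and 0.11, and neither passed. In all, 6 of 10 translocation and signal peptidase genes were higher in SON of SHR and 7 in SON of WKY. Over the members that had further probe sets above the filter, 6 of 8 such probe sets were higher in SON of SHR and 5 in SON of WKY, and none was lower. Ssr3 and Canx provided 4 of the 8, and probe sets of a gene measure the same RNA.

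ER-associated degradation went partly the other way. Herpud1, a membrane scaffold of the degradation complex and a classical stress target, was the only gene lower in SON of both strains. It had 7.81, 7.28, 7.71 and 7.16 in SHR SON and 8.47, 7.99, 7.93, 7.76 and 7.92 in SHR PVN (log2). WKY SON had 7.58, 7.45, 7.37, 7.53 and 7.29, and WKY PVN 8.18, 7.93, 8.03, 7.76 and 7.76. In WKY every SON array was below every PVN array, and in SHR the groups overlapped at their edges. It fell by 0.52 in SHR (adjusted p = 0.0111) and by 0.49 in WKY (adjusted p = 0.0129). Without SHR SON array 4 the SHR difference was -0.41 (adjusted p = 0.0537). Sel1l, the adaptor of the HRD1 ubiquitin ligase, was lower in SON of SHR (-0.48, adjusted p = 0.0349) and had -0.29 in WKY (adjusted p = 0.187). Syvn1, the ligase itself, had -0.18 in SHR and 0.08 in WKY and did not pass. Edem1, which draws mannose-trimmed glycoproteins into degradation, was higher in SON of WKY (0.33, adjusted p = 0.0397) and had 0.21 in SHR (adjusted p = 0.228).

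Neither sensor passed between the nuclei. Eif2ak3, which encodes PERK, had 0.12 in SHR and 0.10 in WKY, with 95% intervals from -0.08 to 0.31 and from -0.08 to 0.29. Atf6 had -0.08 and -0.02, with intervals from -0.36 to 0.20 and from -0.29 to 0.24.

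Among the transcription factors of the response, Atf4 was higher in SON of both strains. ATF4 drives amino acid synthesis and redox genes when translation is slowed. Its log2 signals were 9.57, 9.71, 9.43 and 9.33 in SHR SON and 9.22, 9.12, 9.05, 8.91 and 8.99 in SHR PVN. They were 9.84, 9.76, 9.75, 9.92 and 9.97 in WKY SON and 9.12, 9.13, 9.30, 9.17 and 9.13 in WKY PVN. No array of SON was as low as any of PVN in its strain, and the difference was 0.45 ± 0.10 in SHR (adjusted p = 0.0013) and 0.68 ± 0.09 in WKY (adjusted p = 1.04e-05). Xbp1 averaged 9.98 ± 0.09 in SHR SON and 9.66 ± 0.24 in SHR PVN (SD), a difference of 0.32 with an adjusted p of 0.0504, and 10.08 ± 0.17 in WKY SON and 9.75 ± 0.12 in WKY PVN, where it passed (0.33, adjusted p = 0.0344). The array reads total Xbp1 mRNA here and gives no value for its spliced form. Ddit3, which encodes the stress factor CHOP, averaged 7.71 in SHR SON and 7.49 in SHR PVN (adjusted p = 0.164), and 7.96 in WKY SON and 7.58 in WKY PVN (0.39, adjusted p = 0.0123). Creb3l2, an ER-anchored factor of the CREB3 family, was dim, with 5.33 in SHR SON, 5.43 in WKY SON, 5.02 in SHR PVN and 5.04 in WKY PVN, and did not pass. Trib3, a target of ATF4 and CHOP, lay below the filter in every group (means of 3.88 in SHR SON, 4.43 in WKY SON, 4.11 in SHR PVN and 3.88 in WKY PVN) and was not tested.

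**Figure D3:**
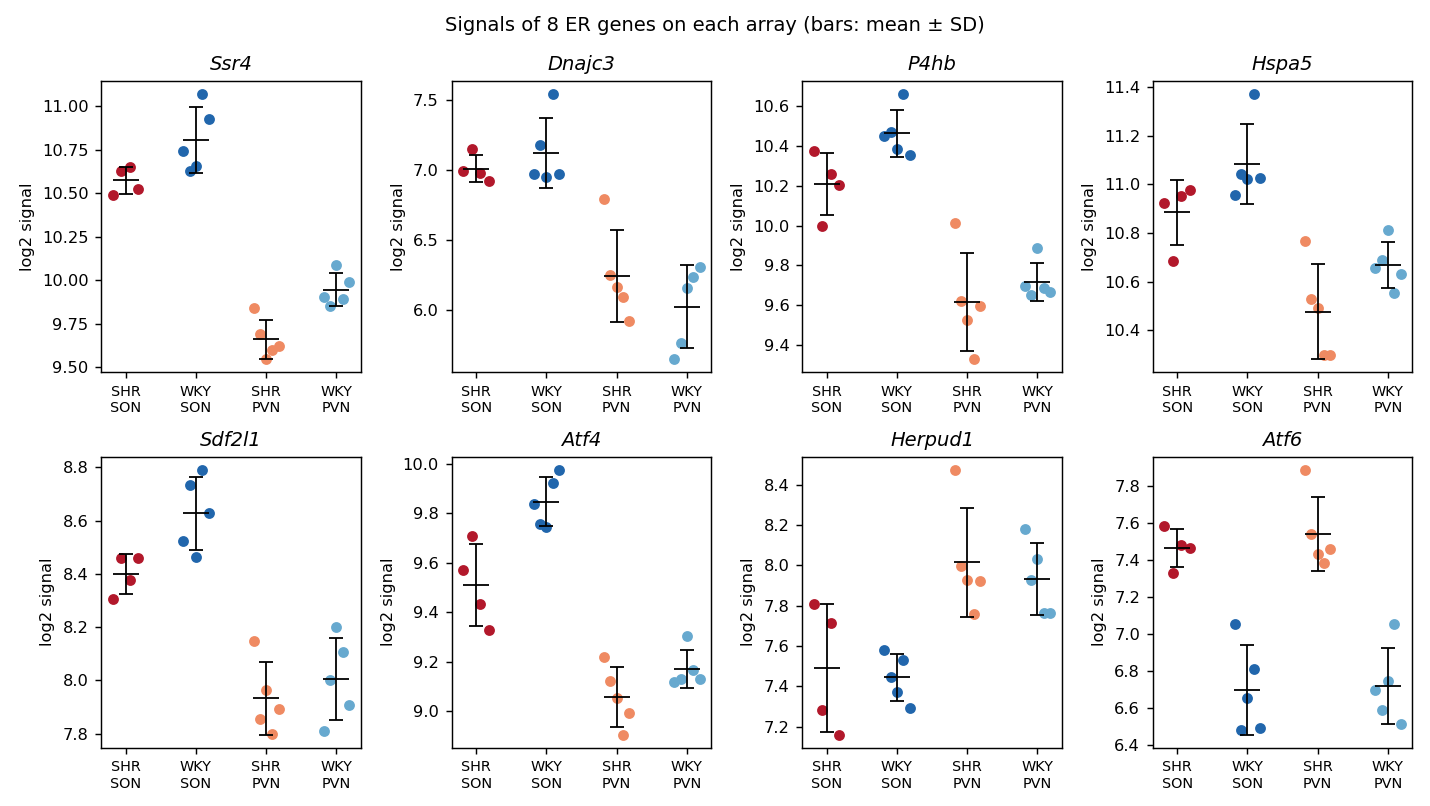
Log2 signals of 8 ER genes on each of the 19 arrays (y axis) in SHR SON, WKY SON, SHR PVN and WKY PVN (x axis), with group mean and SD as bars. SON points lie above PVN points for Ssr4, Dnajc3, Sdf2l1 and Atf4 in both strains, Herpud1 runs the other way, and Atf6 separates SHR from WKY and not the nuclei. Each panel has its own y axis, which does not start at 0.

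Promoter elements were read against these calls without a test. Of the 7 genes with an ERSE, 4 were higher in SON of SHR (Hspa5, Hsp90b1, Canx and Dnajc3) and 5 in SON of WKY (the same 4 and Xbp1), with medians of 0.32 and 0.35. Of 20 tested genes whose window held no exact match to ERSE or ERSE-II, 11 were higher in SHR and 13 in WKY, with medians of 0.35 and 0.39. Herpud1, lower in SON, and Dnajb11, higher in SON of WKY, both carried the ERSE-II stretches shown above.

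The rest of the pathway was read from lists of genes outside the 38 names. The oligosaccharyltransferase, which adds N-glycans to chains as they enter, had the highest share of these lists, with 9 of 12 subunits higher in SON of SHR and 10 of 12 in SON of WKY and none lower. Ostc (0.84 in SHR and 1.02 in WKY) and Magt1 (0.70 and 0.60) had the largest differences, and the median was 0.42 in each strain. Of 15 other targeting and translocation genes, 6 were higher in SHR and 7 in WKY, led by the signal peptidase catalytic subunit Sec11c (0.82 and 0.76). Of 24 other folding enzymes, 8 were higher in each strain and none lower. The prolyl isomerases Fkbp11 (2.83-fold in SHR and 2.65-fold in WKY) and Fkbp14 (2.41-fold and 2.03-fold) were at their head.

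ER-to-Golgi transport followed, with 11 of 31 genes higher and 1 lower in SON of SHR and 15 higher in SON of WKY. Tmed3, a cargo receptor of transport vesicles, had 1.37 in SHR and 1.57 in WKY, and Kdelr3, a receptor that returns chaperones to the ER, 1.22 and 1.27. Other degradation genes were sparser, with 3 of 16 higher in SHR and 5 higher and 1 lower in WKY, of which Selenos had 0.61 and 0.71. Of 18 other stress genes, 4 were higher in SHR and 8 in WKY. Nupr1, a stress-induced nuclear protein, had 2.72 and 1.95, and Slc7a11, the cystine transporter that ATF4 activates, 1.23 and 1.14. Which cells carried these signals was not tested, and the meningeal, astrocyte and endothelial markers named above were higher in the same arrays.

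The cargo genes were more often lower than higher in SON. Of 19 secreted peptides and granins, 3 were higher and 10 lower in SON of SHR, and 4 higher and 9 lower in SON of WKY, led downwards by Crh, Sst and Trh (differences of -4.66, -4.58 and -3.88 in SHR and -4.06, -4.79 and -3.60 in WKY). Pdyn, the prodynorphin gene that vasopressin neurones express, was higher by 1.93 in SHR and 1.82 in WKY. Avp differed by 0.24 ± 0.16 in SHR (adjusted p = 0.288) and 0.06 ± 0.15 in WKY (adjusted p = 0.816), and Oxt by 0.20 ± 0.17 and -0.02 ± 0.16. Both lay near the top of the arrays' range, since the highest signal of any probe set was between 11.89 and 12.97 on the 19 arrays.

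Few ER genes were called between the strains. In simulated signals with the spread of these arrays, 44% of probe sets changed by 0.5 on the log2 scale were called in PVN. In SON 31% were, so few calls do not mean few differences. In PVN, 1 of 35 tested genes passed, Atf6, which was higher in SHR (limma, where 2.34% of all tested probe sets passed, 1.13% higher and 1.21% lower). In SON, Atf6 was higher and Ssr1 lower in SHR, 2 of 36 tested, where 3.63% of all probe sets passed, 1.29% higher and 2.33% lower. At a 2-fold limit 0 genes passed in either nucleus, against 0.626% of all probe sets in PVN and 0.767% in SON. Without SHR PVN array 4 and WKY SON array 3 these counts were again 1 and 2, and without WKY SON array 5 the SON count was 2. At an unadjusted p under 0.05 there were 3 genes in PVN and 11 in SON, 10 of these lower in SHR, where 13.5% and 19.3% of all probe sets had such a p.

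Atf6, the sensor that is cut in the Golgi to release a transcription factor, was the gene with the clearest strain difference. Its log2 signals were 7.58, 7.33, 7.48 and 7.46 in SHR SON and 7.05, 6.48, 6.65, 6.81 and 6.49 in WKY SON. In PVN they were 7.89, 7.54, 7.43, 7.39 and 7.46 in SHR and 6.70, 6.59, 6.75, 7.05 and 6.52 in WKY. Every SHR array was above every WKY array in both nuclei, which held for 2.9% of all probe sets in SON and 1.85% in PVN. The difference was 0.77 ± 0.13 in SON (1.70-fold, adjusted p = 0.0061) and 0.82 ± 0.13 in PVN (1.77-fold, adjusted p = 0.0014), and the difference between those 2 values was -0.05, with a 95% interval from -0.44 to 0.33. A further Atf6 probe set was dim, with means of 2.90 in SHR SON, 2.72 in WKY SON, 3.45 in SHR PVN and 3.82 in WKY PVN. It was below the filter and untested, so the strain difference rests on 1 probe set.

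Ssr1, the alpha subunit of TRAP, had 9.54, 9.61, 9.47 and 9.56 in SHR SON and 9.93, 10.08, 10.05, 10.26 and 9.89 in WKY SON. The groups did not overlap, and SHR was lower by 0.50 ± 0.10 on the log2 scale (0.71-fold, adjusted p = 0.0182). The call was lost without SHR SON array 3 (-0.47, adjusted p = 0.0702) or WKY SON array 2 (-0.49, adjusted p = 0.0509), and with all 4 groups or a replicate block in the fit. In PVN the same probe set had a difference of -0.22 (adjusted p = 0.625), with the arrays overlapping between 9.02 and 9.57. The dimmer Ssr1 probe set was lower in SHR in both nuclei, by 0.39 ± 0.10 in SON (adjusted p = 0.0482) and 0.51 ± 0.12 in PVN (adjusted p = 0.0326).

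Several other genes had SHR SON arrays entirely below WKY SON arrays without passing, namely Atf4 (-0.34, adjusted p = 0.105), Pdia6 (-0.23), Sdf2l1 (-0.23) and Dnajb11 (-0.20). Such separation downwards was seen in 6.95% of all probe sets in SON. Ssr4 did so in PVN (-0.28, adjusted p = 0.198), where 2.52% of all probe sets did. Sec61a1 had the largest unpassed difference in SON, -0.54, with a 95% interval from -0.88 to -0.20 and an adjusted p of 0.0806. For Hspa5 the strain difference was -0.20 in SON (interval from -0.44 to 0.05) and -0.19 in PVN (from -0.43 to 0.05). Xbp1 had -0.10 and -0.09, Ddit3 -0.26 and -0.09, and Creb3l2 -0.09 in SON.

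Most of the small differences pointed down in SHR. The median over the genes was -0.17 in SON and -0.11 in PVN, beside -0.04 and -0.04 for all tested probe sets. A positive value was seen for 3 of 36 genes in SON and 7 of 35 in PVN, where 41.3% and 41.7% of all probe sets were positive. With quantile normalisation the medians shrank to -0.09 in SON and -0.02 in PVN, with 9 and 15 positive genes. With the values as deposited they were -0.11 and -0.07, with 7 and 11 positive genes. The size of the shift therefore depended in both nuclei on how the arrays were scaled. Without SHR PVN array 4 and WKY SON array 3 the medians were -0.21 in SON and -0.06 in PVN, with 4 and 13 positive genes. The general neuronal markers moved the same way, with 7 of 7 negative in SON (median -0.19) and 6 of 8 in PVN (median -0.18), and their part was not tested. Their mean per array was 8.66 to 8.91 in SHR SON and 8.96 to 9.13 in WKY SON, without overlap. Of these markers only Thy1 passed, in both nuclei (-1.61 in SON and -1.33 in PVN). Thy1 lay far beyond the medians of the list, so that it weighs heavily in this mean. As a result of the nucleus and strain differences, the mean was highest in WKY SON for 31 of the 36 genes and lowest in SHR PVN for 29, and 23 genes had the full order of WKY SON over SHR SON over WKY PVN over SHR PVN. These orders were not counted over all probe sets or with the arrays scaled otherwise, so whether they are unusual is not known. Between neighbours of that order that share a nucleus, the difference passed for Ssr1 in SON alone, and the Atf6 levels do not follow the order.

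**Figure D4:**
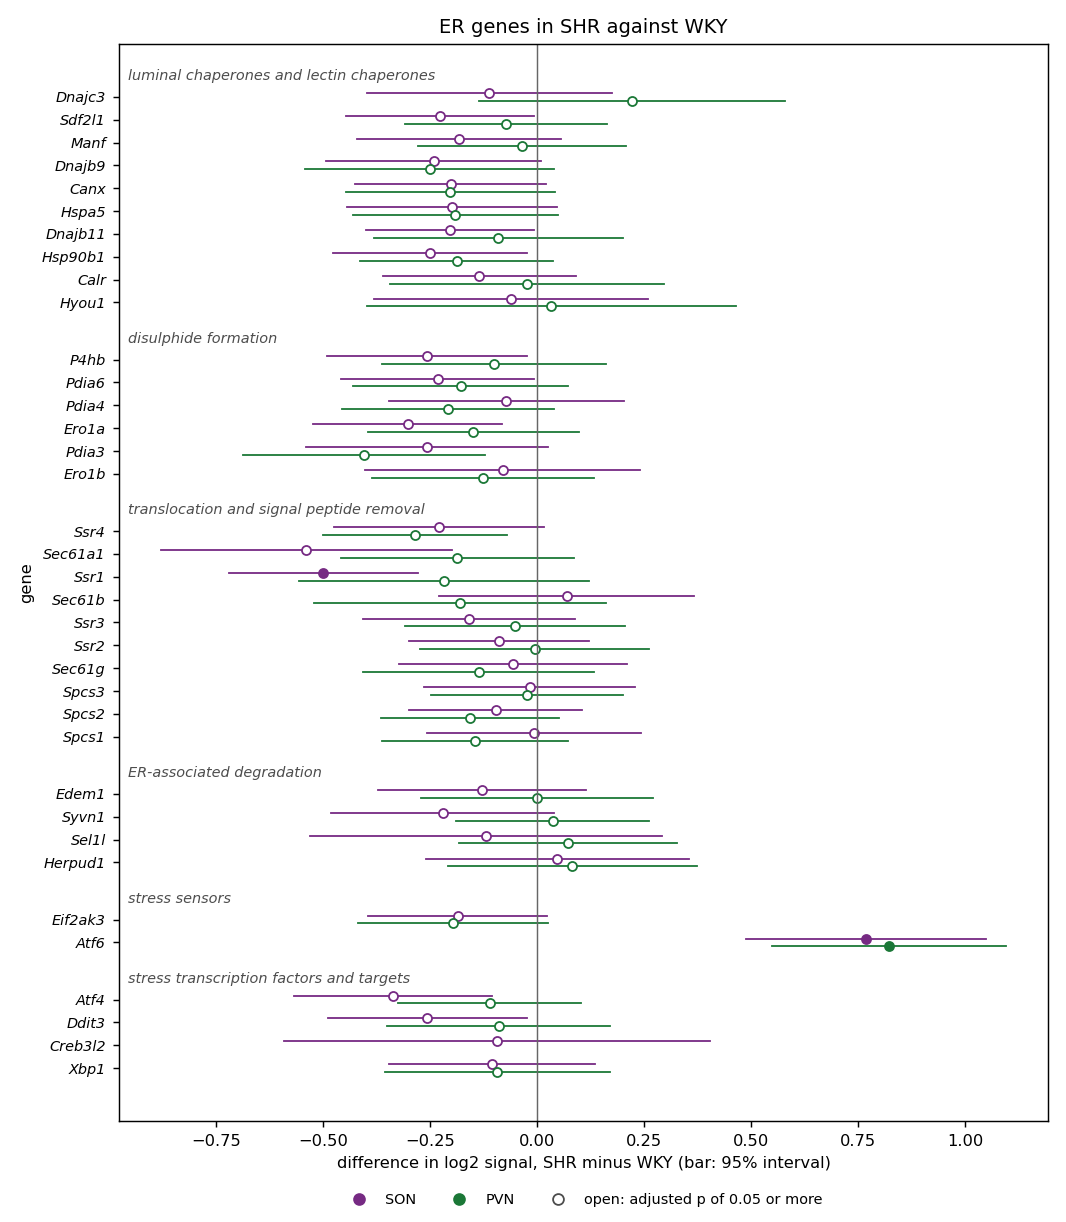
Differences in log2 signal between the strains (x axis, SHR minus WKY, bars 95% intervals) for the tested ER genes (y axis, grouped by role), in SON and in PVN. Filled points have an adjusted p under 0.05, namely Atf6 above 0 in both nuclei and Ssr1 below 0 in SON, and most open points lie between 0 and -0.30.

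A change of the strain difference between the nuclei was not called for any ER gene. In the 4-group fit, 0 of 36 passed at an adjusted p under 0.05 and 0 had an unadjusted p under 0.05, where 0.0819% and 6.85% of all tested probe sets did. The values ran from -0.35 for Sec61a1 (95% interval from -0.78 to 0.08) to 0.25 for Sec61b (from -0.23 to 0.72). Genes that passed between the nuclei in a single strain, Dnajb11, Sec61a1, Ssr2, Edem1, Xbp1 and Ddit3 in WKY and Sec61g and Sel1l in SHR, are therefore not shown to differ between the strains.

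Around the ER genes, 2 of 31 transport genes were lower in SHR SON and 1 of 30 in SHR PVN. Sec23b, a coat component of vesicles leaving the ER, averaged 7.96 in SHR SON and 9.14 in WKY SON (-1.18, adjusted p = 4.17e-05), and 8.13 in SHR PVN and 8.76 in WKY PVN (-0.63, adjusted p = 0.0059). Ergic1, a protein of the compartment between ER and Golgi, passed in SON (-0.44). Of the lists of oligosaccharyltransferase, targeting, degradation and stress genes, 0 passed in either nucleus (limma), with 2, 1, 2 and 0 genes at an unadjusted p under 0.05 in PVN and 2, 3, 3 and 6 in SON. Of 18 cargo genes tested, 7 were lower in SHR SON, among them Ucn (-1.87), Nmb (-1.04) and Chgb (-0.69), and 2 were lower in SHR PVN, Cck (-0.55) and Chgb (-0.49). Avp differed by -0.12 ± 0.18 in SON and -0.29 ± 0.12 in PVN, and neither passed. Of 24 other folding enzymes, 2 were higher and 1 lower in SHR SON and 1 was higher in SHR PVN. Txndc5, a thioredoxin-domain enzyme, was higher in both nuclei (0.57 in SON and 0.54 in PVN), Fkbp9 higher in SON (0.89) and Erp29 lower in SON (-0.40). In SON, 3 of the 9 meningeal markers were higher in SHR (Dcn, Lum and Crabp2), and in PVN 2 of 5 ependymal and choroid markers were (Tekt1 and Ak7, without overlap), and their part in the strain values was not tested.

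Within a group the ER genes tended to shift together from array to array. SHR PVN array 1 had the highest value of its group for 29 of the 36 genes and array 4 the lowest for 27. In WKY SON, array 4 was highest for 23 and array 3 lowest for 17. In WKY PVN, array 3 was highest for 24 and array 1 lowest for 18. In SHR SON no array was highest for more than 10, and array 2 was lowest for 15. The same counts over all probe sets were not made. The ER-to-Golgi (8.49), general neuronal (9.16) and astrocyte (9.86) lists also had their highest mean of SHR PVN on array 1. The meningeal and ependymal lists did not, and the shift is not shown to be particular to the ER genes. The mean over the 36 genes spanned 8.74 to 8.83 in SHR SON, 8.84 to 9.11 in WKY SON, 8.32 to 8.75 in SHR PVN and 8.48 to 8.72 in WKY PVN. On this scaling the strains overlapped in PVN and lay just apart in SON, and SHR PVN array 1 reached the level of the lowest SHR SON array. These means were not read with the arrays scaled otherwise. The magnocellular markers Avp, Oxt and Pdyn did not follow the same arrays throughout. Their mean was 12.26 on WKY SON array 4, behind array 5 with 12.48 (group median 11.90). It was the highest of the group on SHR PVN array 1 (11.28) and the lowest of the group on WKY PVN array 3 (11.29). On these scaled signals, arrays of a group therefore differed in a way common to many ER genes. The genes are not independent counts of the nucleus difference. Before scaling, the median signal was the lowest of its group on SHR PVN array 1 (35.9), WKY SON array 4 (38.2) and WKY PVN array 3 (38.4). It was the highest of its group on SHR PVN array 4 (46.5), WKY SON array 3 (43.5) and WKY PVN array 1 (41.6). The part of the scaling in the shared shift was not tested.

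**Figure D5:**
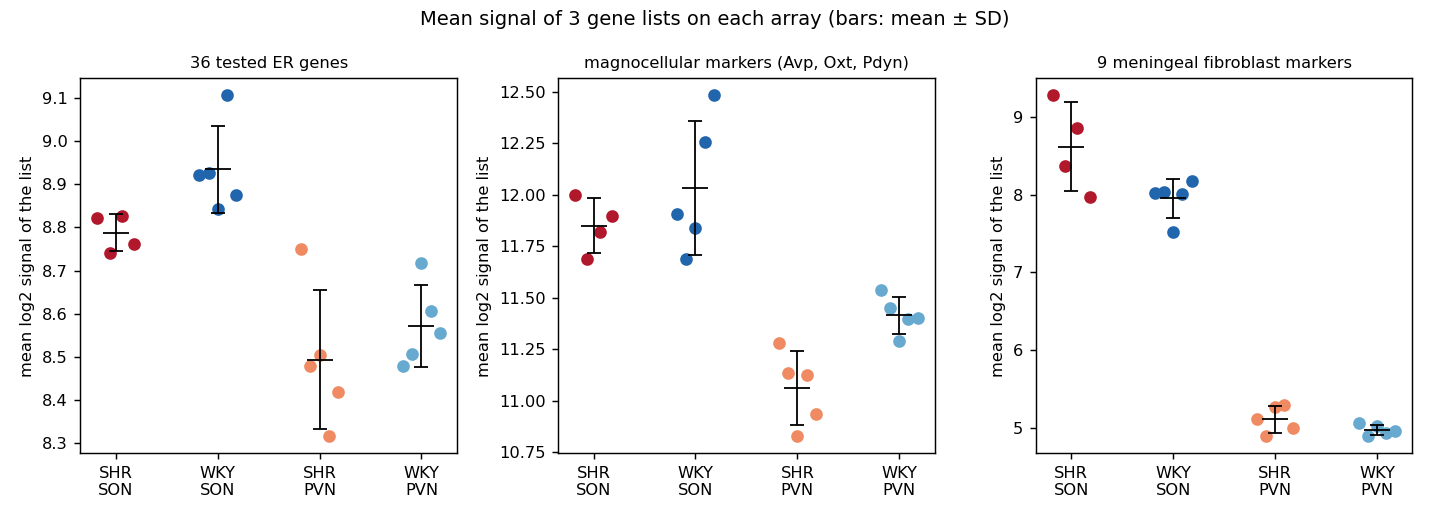
Mean log2 signal per array (y axis) of the 36 tested ER genes, of the magnocellular markers and of the 9 meningeal fibroblast markers, in SHR SON, WKY SON, SHR PVN and WKY PVN (x axis), with group mean and SD as bars. The ER genes and the magnocellular markers are highest in WKY SON, while the meningeal markers are highest in SHR SON. The y axes do not start at 0.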

How the data were processed

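Rat hypothalamic RNA from SHR and WKY was measured on 19 single-colour Affymetrix arrays, each a pool of dissected nuclei whose RNA the authors had linearly amplified. The deposited values are linear probe-set intensities that the authors computed with MAS5, each array scaled to a trimmed mean of about 100.0. The later normalisation and presence filter that the methods describe are not in these values. The arrays' median signals were 35.9 to 46.5, their number limits the precision, and 8.33% to 10.6% of values lay at the floor used here.

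Groups came from the labels. The 57 control probe sets were left out of 31099. Each array was divided to a common median, values below the 10th percentile of all signals (3.75) were set to it, and log2 was taken. A probe set was tested where the mean of at least 1 group in the fit was at least 5.32 on the log2 scale, the middle value of the probe-set means. Strain was fitted within each nucleus, and SON against PVN and the interaction over the 4 groups, using R 4.3.3 and its package limma 3.58.1 (moderated linear models, two-sided, Benjamini-Hochberg over all tested probe sets, called at an adjusted p under 0.05 with no fold limit). Probe sets were named from the platform annotation, which gave 1 symbol to 20826, several to 436 and none to 9780. Of the named ones, 20758 were updated to current symbols. Promoter windows are RefSeq's for GRCr8.

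The ER genes, the pathway and marker lists and the tests were chosen with earlier results of these data known. All ER genes could be named. Called genes were named up to the 10 with the largest difference, with per-array values for at most 6 in a comparison. Hspa5, Xbp1, Atf4, Creb3l2 and Ddit3 were always given, as were Avp and Oxt, and each pathway list by up to 3 called genes with the largest difference. Levels were not compared between probe sets. The alternatives were other scalings, floors, filters, sets of arrays in the fit, moderation, array weights, the methods' test, a fold limit, any probe set of a gene and each array left out. No arrays were identical. The scripts were tested on simulated data, and figures were drawn with matplotlib 3.10.9.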

Additional observations from a re-analysis of the deposited data

Results flagged for a closer look

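Of the 148 sets of values that 37 genes and 4 groups give, 10 had an array far from the others of its group by Dixon's test. For a single set chance gives about 1 in 20, but the sets share arrays and are not independent. Most flags fell on WKY SON array 4 and WKY PVN array 3, whose median signals before scaling (38.2 and 38.4) were the lowest of their groups. WKY SON array 4 was high for Hspa5 (11.37, the others 10.96 to 11.04), Calr (8.92, the others 8.63 to 8.71), Sec61b (11.10, the others 10.52 to 10.66), Spcs3 (9.89, the others 9.54 to 9.64) and Xbp1 (10.38, the others 9.94 to 10.06), all on the log2 scale. WKY PVN array 3 was high for Dnajb9 (9.50, the others 9.19 to 9.23), P4hb (9.89, the others 9.65 to 9.70) and Atf4 (9.30, the others 9.12 to 9.17). WKY PVN array 1 was low for Sec61a1 (6.79, the others 6.94 to 6.99), and SHR SON array 2 was low for Pdia6 (10.40, the others 10.58 to 10.61).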

How the results depend on the processing

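In PVN, 1 ER gene differed between the strains, and 3 did with array weights, 2 with any probe set of a gene and 0 at 2-fold. In SON, 2 differed, and 1 did with the replicate block, 4 with an intensity trend and robust moderation, 4 with array weights, 0 with the methods' test and 0 at 2-fold. Between SON and PVN of SHR, 19 differed, and 11 did with the methods' test and 0 at 2-fold. In WKY, 23 differed, and 1 did at 2-fold. The cause of these changes was not tested, beyond the fold limit's own construction. Leaving out each array in turn gave 1 to 2 genes for strain in PVN, 1 to 2 for strain in SON, 14 to 24 for the nuclei of SHR (24 without SHR PVN array 1, 14 without SHR SON array 4 or SHR PVN array 4), 19 to 25 for those of WKY and 0 to 0 for the interaction.

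Setting the 2-fold limit aside, which Atf6 and Ssr1 did not reach, Atf6 passed in PVN under each of 21 other alternatives and in SON under 19 of 20, missing with the methods' test (adjusted p = 0.0564). Ssr1 passed in SON in 15 of 20, and not with all 4 groups in the fit, the replicate block, the methods' test, without SHR SON array 3 or without WKY SON array 2. Of the 19 genes called in SHR and the 23 in WKY between the nuclei, 9 and 17 were called in every alternative but that limit, and no called gene changed sign. Genes that were not called did, as the count of positive strain differences in PVN shows (7, and 15 with quantile normalisation). Same-numbered arrays are not known to be pairs, and their deviations correlated between -0.226 and 0.174. Adding a replicate block to the fit, 1, 1, 15, 20 and 0 genes were called for strain in PVN, strain in SON, the nuclei of SHR, those of WKY and the interaction. The filter on low signals kept Trib3 out of every test and Creb3l2 out of the strain test in PVN.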
